A study of Homo sapiens with 6 samples.

Results

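The ERBB receptor ligands of PC-9 lung cancer cells were followed at the level of gene totals and of single isoforms after knockdown (KD) of RBM10. The 8 ligand genes AREG, EREG, TGFA, HBEGF, BTC, EGF, EPGN and NRG1 were taken by their symbols from the 26334 genes of the deposited isoform tables, in which they hold 36 of 51398 isoforms. PC-9 is an established human lung adenocarcinoma line with an activating EGFR mutation, and RBM10 is an RNA-binding protein that takes part in alternative splicing. The cells carried shScr, shRBM10#1 or shRBM10#2, with 2 libraries of total RNA for each of the 3 conditions. By the culture methods of the study the cells were grown in RPMI with 10% FBS, so the serum of the medium was shared by control and KD cells. The library titles and the RNA sequencing methods of the study name no drug. The labels name the control shScr, as does the account of the results in the study, whereas its methods name parental PC-9 cells, and whether a line was 1 clone is not stated in the sources used here. Nothing in them says that the libraries came from separate cultures, so p-values measure only the spread between these libraries, which may be technical.

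The ligands are made as membrane-anchored precursors with an EGF-like domain, and metalloproteases of the ADAM family release the soluble growth factor. AREG, TGFA, EGF and EPGN bind EGFR, whereas HBEGF, BTC and EREG bind both EGFR and ERBB4, and NRG1 binds ERBB3 and ERBB4. Tumor cells of epithelial origin commonly make several of these ligands themselves, and several of the ligand genes are induced by ERK signaling downstream of the receptor.

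HBEGF was lower with both shRNAs, and it fell more with shRBM10#1 than with shRBM10#2. AREG and TGFA were also lower with shRBM10#1, TGFA was slightly lower with shRBM10#2, and none of these 8 ligands was called higher with either shRNA against shScr. BTC and EGF were not called, EPGN and NRG1 rested on few reads, and EREG was close to absent.

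Library totals ranged from 31953729 to 37557507 expected counts, and the mean fragment length implied by the effective lengths was 230 nt in shScr 2 and 264 to 280 nt in the other 5 libraries. RBM10 itself, counted over its isoforms, was at 38.52 and 45.72 TPM (the length-normalized share of all transcripts) in shScr, 28.42 and 25.82 in shRBM10#1 and 13.13 and 12.79 in shRBM10#2, which left 68.6% and 31.9% of the shScr level in the edgeR fit. All 5 epithelial markers examined (EPCAM, CDH1, KRT8, KRT18 and KRT19) were above 1 TPM in every library, whereas none of the 3 lung lineage markers (NKX2-1, NAPSA and SFTPB) was, and their summed level was 0.31 to 0.82 TPM. In shScr, shRBM10#1 and shRBM10#2 the mean was 0.3, 0.025 and 0.04 TPM for NKX2-1 and 0.295, 0.645 and 0.38 TPM for NAPSA. The 4 leukocyte markers summed to 0.41 to 1.21 TPM and the 4 fibroblast markers to 2.01 to 2.88 TPM. Most of the fibroblast sum was COL1A1, at a mean of 2.86, 2.45 and 2.13 TPM in the same order. Of the 3 endothelial markers (PECAM1, VWF and CDH5), 2 were above 1 TPM in every library. Their sum was 6.02 to 7.65 TPM in shScr, 10.3 to 12.7 in shRBM10#1 and 7.3 to 7.52 in shRBM10#2. It was highest where the ligands were lowest, and most of it was CDH5, at a mean of 5.4, 9.68 and 5.86 TPM in that order. PECAM1 was at 1.2, 1.63 and 1.44 TPM, whereas VWF went the other way, at 0.225, 0.18 and 0.11 TPM. The part of these genes in the results was not tested.

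TGFA and HBEGF were the leading ligands of the control cells. In shScr the mean level was 15.1 TPM for TGFA and 14.2 TPM for HBEGF, and the library values of the pair overlapped. They were followed by AREG at 5.68 TPM and BTC at 2.16 TPM, without overlap between neighbors. The remaining ligands were below 1 TPM, with EPGN at 0.46, EGF at 0.355, NRG1 at 0.305 and EREG at 0.035 TPM. With shRBM10#1 the order was led by TGFA alone at 10.7 TPM. HBEGF was then at 2.64, AREG at 2.4 and BTC at 2.01 TPM, where HBEGF could not be separated from AREG by the library values, nor AREG from BTC. With shRBM10#2 TGFA was at 12.4, HBEGF at 5.82, AREG at 3.93 and BTC at 2.1 TPM, and no neighbors among these 4 overlapped.

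**Figure D1:**
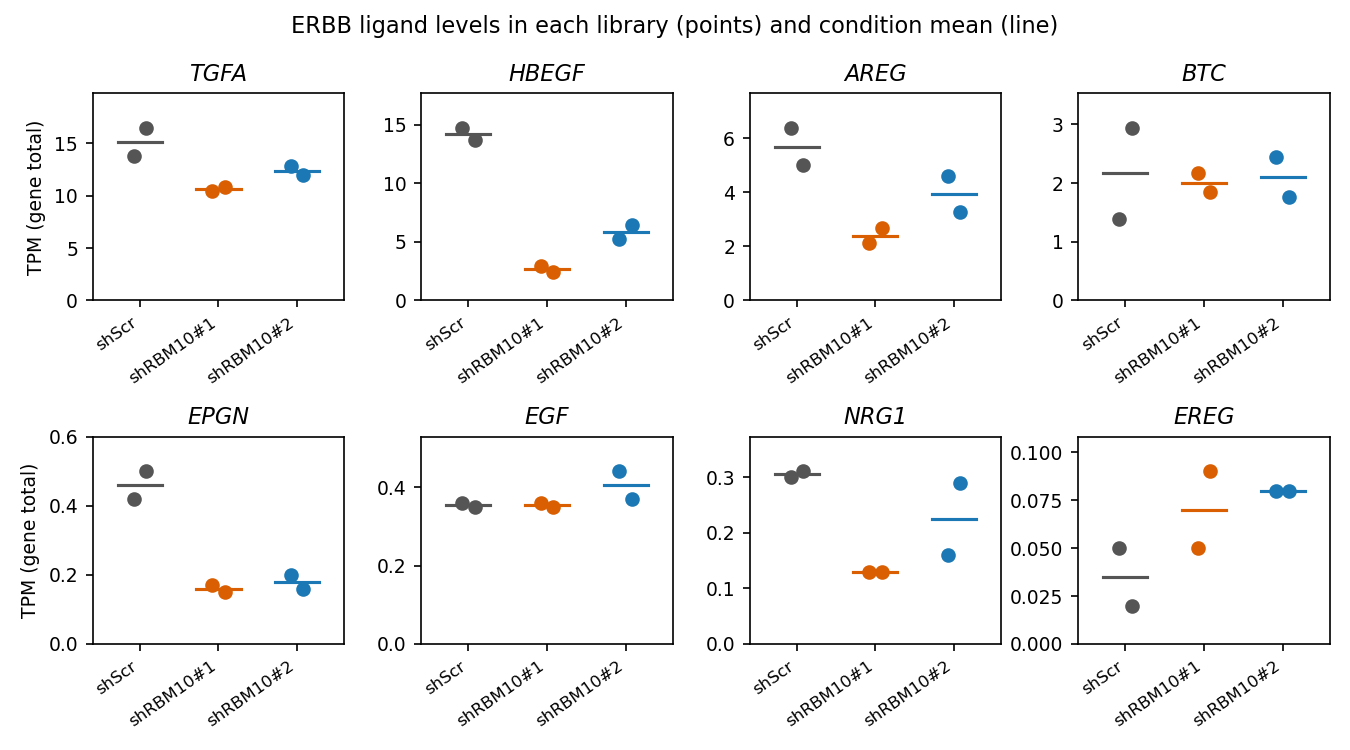
Levels of the 8 ligand genes in TPM, 1 panel for each gene with its own axis from 0, with 1 point for each of the 2 libraries of shScr, shRBM10#1 and shRBM10#2 and a line at their mean. HBEGF separates all 3 conditions, from a mean of 14.2 TPM in shScr to 5.82 in shRBM10#2 and 2.64 in shRBM10#1, whereas the shScr points of BTC enclose those of both shRNAs.

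The summed level of the 8 ligands was 37.4 and 39.3 TPM in shScr, 18.4 and 18.5 in shRBM10#1 and 26 and 24.3 in shRBM10#2. The 3 conditions did not overlap. HBEGF supplied 39.3% and 34.9% of this sum in shScr, 15.8% and 12.9% in shRBM10#1 and 20.1% and 26.3% in shRBM10#2. TGFA supplied 36.9% and 41.9% in shScr, and it made up 56.9% and 58.8% of the sum in shRBM10#1 and 49.4% and 49.3% in shRBM10#2, although its own level was lower there. Without HBEGF the sum was 22.7 and 25.6 TPM in shScr, 15.5 and 16.1 in shRBM10#1 and 20.8 and 17.9 in shRBM10#2, and the conditions again did not overlap. These sums are descriptions and were not tested. With 2 libraries in each condition, values that do not overlap are also seen in genes that were not called. EGF is an example, at 0.44 and 0.37 TPM in shRBM10#2 and 0.36 and 0.35 in shScr.

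**Figure D2:**
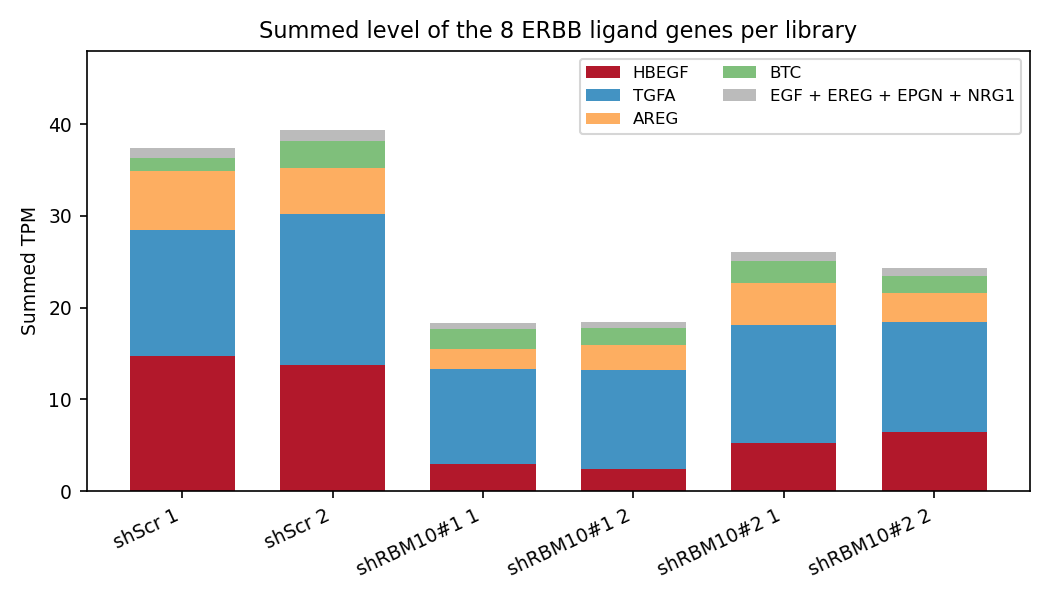
Summed TPM of the 8 ligand genes in each of the 6 libraries, stacked by gene, with EGF, EREG, EPGN and NRG1 drawn together. The stack is 37.4 and 39.3 TPM high in the shScr libraries and 18.4 and 18.5 in the shRBM10#1 libraries, and the HBEGF segment shrinks most.

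HBEGF encodes heparin-binding EGF-like growth factor, whose membrane-bound precursor is also known as the diphtheria toxin receptor. Its level was 14.71 and 13.72 TPM in shScr, 2.9 and 2.39 TPM in shRBM10#1 and 5.24 and 6.4 TPM in shRBM10#2, from 698, 581, 130, 131, 277 and 351 expected counts in that order. Each condition lay apart from the other two. Against shScr the log2 fold change (FC) of the gene total was −2.35 ± 0.147 (SE) with shRBM10#1, a 5.09-fold lower level (edgeR quasi-likelihood test, FDR = 2.07e-06), and −1.23 ± 0.133 with shRBM10#2, a 2.35-fold lower level (FDR = 0.000125). Both comparisons share the shScr libraries. The unadjusted p was 8.84e-10 and 4.95e-07 in this gene test. The isoform test below gave 4.02e-05 and 0.000796 from the same counts, so the p-value depends on the fit as well as on the counts. Among the 14217 genes tested, HBEGF had the p-value of rank 6 with shRBM10#1 and of rank 56 with shRBM10#2. The difference between the shRNAs was itself called, with HBEGF 2.16-fold higher in shRBM10#2 than in shRBM10#1 (log2 FC 1.11 ± 0.155, FDR = 0.000518). RBM10 had the opposite order, with a log2 FC of −0.54 ± 0.067 with shRBM10#1 and −1.65 ± 0.0701 with shRBM10#2, so of the KD cells those that kept more RBM10 mRNA had the lower HBEGF. The source of this difference was not tested. With the 4 KD libraries as 1 group, the log2 FC of HBEGF was −1.68 ± 0.309 (FDR = 0.0402). The pooled call was lost without shScr 1 (FDR = 0.382), shScr 2 (FDR = 0.31) or shRBM10#1 2 (FDR = 0.0589), whereas the calls by shRNA were kept without any 1 of the 6 libraries.

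AREG encodes amphiregulin, an EGFR ligand of epithelia. Its level was 6.37 and 5 TPM in shScr, 2.13 and 2.66 TPM in shRBM10#1 and 4.61 and 3.25 TPM in shRBM10#2. The shRBM10#1 libraries lay below those of shScr and of shRBM10#2, and the lower shScr value was close to the higher shRBM10#2 value (3.16 and 3.23 in counts scaled to library size, CPM, where the groups overlapped). The log2 FC was −1.17 ± 0.249 with shRBM10#1, or 44.5% of the shScr level (FDR = 0.0079), and −0.50 ± 0.233 with shRBM10#2 (FDR = 0.136). The difference between the shRNAs was 0.67 ± 0.254 and did not pass the test (FDR = 0.0722), so AREG was not shown to respond differently to them. The AREG call with shRBM10#1 was lost without shScr 1 (log2 FC −0.90, FDR = 0.0814). The values rest on 46 to 145 expected counts for each library.

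HBEGF lies at chr5:140332843-140346631 on the minus strand and AREG at chr4:74445134-74455009 on the plus strand (GRCh38, GENCODE 29). The 250 bases before the RefSeq transcription start of each are shown here because HBEGF and AREG had the largest called falls among the ligands past the count filter in every library, and 4 short motifs were searched on both strands (TGANTCA, an AP-1 site; TGACG, the core of a cAMP response element; GGGCGG, an Sp1 site; TATAAA, the motif of the TATA box). Capitals mark each match on either strand.
HBEGF, chr5:140346604-140346853, minus strand: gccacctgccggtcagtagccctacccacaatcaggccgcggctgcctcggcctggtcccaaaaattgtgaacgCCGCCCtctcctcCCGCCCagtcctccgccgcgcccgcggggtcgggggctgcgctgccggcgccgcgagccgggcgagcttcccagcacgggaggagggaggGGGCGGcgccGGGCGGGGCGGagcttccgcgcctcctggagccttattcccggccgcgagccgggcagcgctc
AREG, chr4:74444886-74445135, plus strand: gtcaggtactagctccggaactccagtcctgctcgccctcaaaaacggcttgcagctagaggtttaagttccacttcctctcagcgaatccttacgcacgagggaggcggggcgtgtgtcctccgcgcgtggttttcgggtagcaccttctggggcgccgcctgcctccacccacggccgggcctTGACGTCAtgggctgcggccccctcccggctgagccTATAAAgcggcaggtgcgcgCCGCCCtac
The HBEGF window (RefSeq, GRCh38.p14) held 5 copies of GGGCGG, a pair of them overlapping by 1 base, and none of the other motifs. The AREG window held TGACG on both strands in the overlapping palindrome TGACGTCA, with first bases 65 and 62 bases before the start. It also held TATAAA at 29 and GGGCGG at 9 bases before the start. The same motifs were found in 42.6% (GGGCGG), 21.2% (TGACG), 10.7% (TATAAA) and 6.57% (TGANTCA) of 35116 RefSeq promoter windows of this length. A match is a description of the letters, and no binding was measured. AREG is the direct neighbor of EREG, and EREG of EPGN, in the RefSeq gene order of chromosome 4, with 2 entries between AREG and BTC. These neighbors differed in level, from 0.035 TPM for EREG to 5.68 TPM for AREG in shScr.

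TGFA encodes transforming growth factor α. Its level was 13.79 and 16.48 TPM in shScr, 10.45 and 10.86 TPM in shRBM10#1 and 12.84 and 11.98 TPM in shRBM10#2. Both KD conditions lay below shScr, by a smaller step than for HBEGF. The log2 FC was −0.40 ± 0.0758 with shRBM10#1, or 75.7% of the shScr level (FDR = 0.00376), and −0.22 ± 0.0748 with shRBM10#2, or 86% (FDR = 0.0482). The call with shRBM10#2 was lost with DESeq2 (adjusted p = 0.0839), and without either shScr or either shRBM10#2 library (FDR = 0.0847 to 0.359). TGFA had 909 to 1338.01 expected counts for each library, the most of the 8 ligands.

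EPGN encodes epigen, a low-affinity EGFR ligand. Its level was 0.42 and 0.50 TPM in shScr, 0.17 and 0.15 TPM in shRBM10#1 and 0.20 and 0.16 TPM in shRBM10#2, from 9 to 24 expected counts for each library. The shScr values lay above all KD values. The log2 FC was −1.40 ± 0.438 with shRBM10#1 (FDR = 0.0508) and −1.33 ± 0.425 with shRBM10#2 (FDR = 0.0368). EPGN and NRG1 passed the low count filter (0.289 CPM in at least 2 libraries) through the shScr libraries, whereas no shRBM10#1 library and 1 shRBM10#2 library of each reached it, so a gene kept in this way had to lean toward a fall and the EPGN call is given as a description. It was lost without either shScr or either shRBM10#2 library (FDR = 0.115 to 0.227).

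NRG1 encodes neuregulin 1, the member that acts through ERBB3 and ERBB4. Its level was 0.30 and 0.31 TPM in shScr, 0.13 in both shRBM10#1 libraries and 0.16 and 0.29 TPM in shRBM10#2, from 4 to 12 expected counts. The log2 FC was −1.04 ± 0.625 with shRBM10#1 (FDR = 0.301) and −0.36 ± 0.558 with shRBM10#2 (FDR = 0.682). EREG, which encodes epiregulin, had 2 to 10 expected counts for each library and did not pass the filter. Its level was 0.05 and 0.02 TPM in shScr, 0.05 and 0.09 in shRBM10#1 and 0.08 in both shRBM10#2 libraries. Without the filter its log2 FC was 1.00 ± 0.899 with shRBM10#1 (FDR = 0.598) and 1.13 ± 0.877 with shRBM10#2 (FDR = 0.441), upward and not called. Neither ligand was called, and what size of difference such low counts could show was not tested.

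BTC, which encodes betacellulin, was at 1.39 and 2.94 TPM in shScr, 2.17 and 1.85 TPM in shRBM10#1 and 2.44 and 1.77 TPM in shRBM10#2. The shScr libraries enclosed all 4 KD libraries. The log2 FC was −0.01 ± 0.323 and 0.03 ± 0.318 (FDR = 0.989 and 0.958). EGF was at 0.36 and 0.35 TPM in both shScr and shRBM10#1 and at 0.44 and 0.37 TPM in shRBM10#2, with a log2 FC of 0.09 ± 0.276 and 0.24 ± 0.27 (FDR = 0.864 and 0.556). These standard errors leave room for changes of a size like that of TGFA.

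Of the 7 ligands tested, 3 were called lower with shRBM10#1 (HBEGF, AREG and TGFA), where 6.91% of all genes tested were called lower and 14% were called in either direction. With shRBM10#2, 3 were called lower (HBEGF, TGFA and EPGN), where 13.9% of all genes were called lower and 25.9% in either direction. Between the shRNAs 1 ligand, HBEGF, was called higher with shRBM10#2, where 11% of all genes were called higher and 25.5% in either direction. In the pooled comparison 1 ligand was called, where 1.62% of all genes were. Among the 5 ligands past the filter in every library, the calls against shScr number 3 with shRBM10#1 and 2 with shRBM10#2. The median log2 FC of these 5 was −0.40 with shRBM10#1 and −0.22 with shRBM10#2, beside 0.01 over all genes in each comparison. Over the 7 ligands tested it was −1.04 and −0.36, in both cases the value of NRG1, which was not called and passed the filter through shScr.

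**Figure D3:**
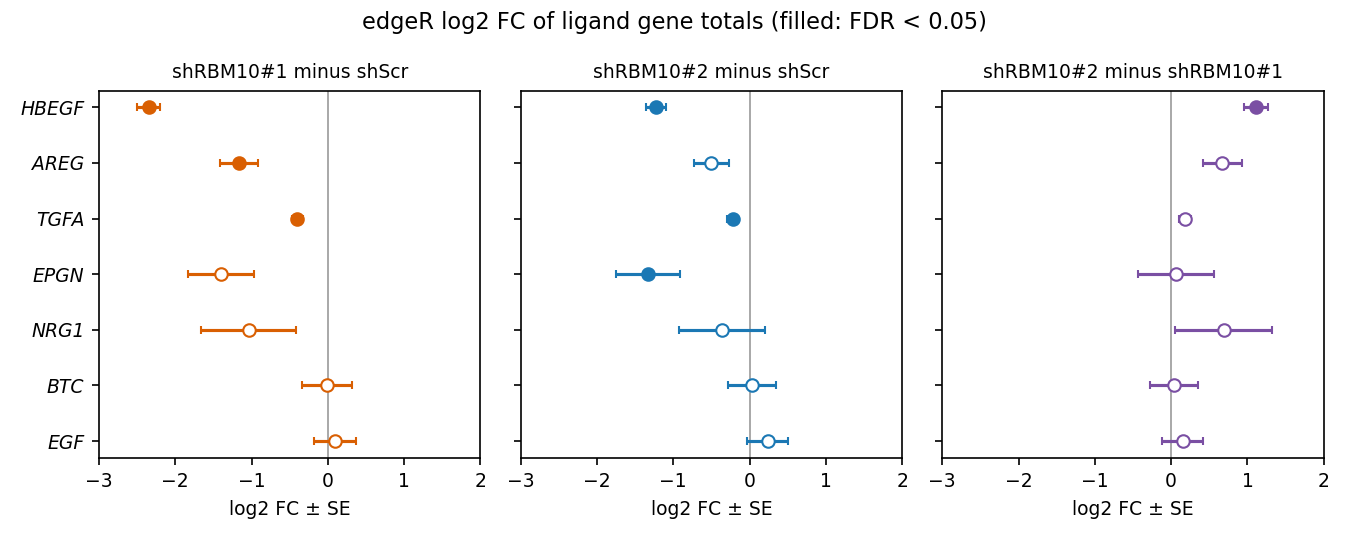
Log2 FC of the gene totals of the 7 ligands tested, with the SE as horizontal bars, for shRBM10#1 minus shScr, shRBM10#2 minus shScr and shRBM10#2 minus shRBM10#1, where filled points have an FDR below 0.05. HBEGF is filled in all 3 panels, at −2.35, −1.23 and 1.11, and the bars of EPGN and NRG1 are the widest.

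Isoforms were then tested by the criteria of the study, an FDR below 0.05 and an absolute log2 FC above 1. The study compared its RBM10-KD group with the control, whereas here isoforms were tested for each shRNA and between the shRNAs, not pooled. Of the 36 ligand isoforms, 10 passed the filter. With shRBM10#2, NM_001945, the only HBEGF isoform in the tables, met both criteria (log2 FC −1.23 ± 0.179, FDR = 0.0468), where 0.491% of 26464 isoforms did. This call was lost without any 1 of the 6 libraries (FDR = 0.0644 to 0.234). NM_003236 of TGFA also had an unadjusted p below 0.05 with shRBM10#2 (0.0352, log2 FC −0.23) and was not called. With shRBM10#1 no ligand isoform met both criteria, and 0.0227% of all isoforms did. There NM_001945 had the larger log2 FC of −2.35 ± 0.188 and an unadjusted p of 4.02e-05, with an FDR of 0.0531 over all isoforms in this edgeR test. The gene test gave the same counts an unadjusted p of 8.84e-10, so the fit differed as well as the adjustment. The unadjusted p was below 0.05 for NM_001657 of AREG (0.0159) and NM_003236 of TGFA (0.00169) as well, and DESeq2 called 2 ligand isoforms, NM_001945 and NM_001657. Between the shRNAs NM_001945 had a log2 FC of 1.11 and an FDR of 0.0527, where 0.359% of all isoforms were called, and NM_003236 also had an unadjusted p below 0.05 (0.0257). DESeq2 called NM_001945 there. AREG is listed as 2 copies of 1 isoform with the same length, and all its counts stood on the first copy except 3.72 in shScr 1.

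TGFA lies at chr2:70447280-70554193 on the minus strand and was the ligand with enough counts to follow isoform choice. Its 4 isoforms differ in the first exon and in the start of exon 3, which has alternative acceptors 3 bases apart. Exon 3 spans chr2:70465616-70465736 (121 bases) in NM_003236 and NM_001308158 and chr2:70465616-70465733 (118 bases) in NM_001099691 and NM_001308159 (GRCh38, GENCODE 29). The junction of exons 2 and 3 is shown for both forms, with 12 bases on each side, because these 3 bases separate the major isoforms, and capitals mark the bases that only the longer form has.
TGFA, longer exon 3: ccccgctgagtgCAGacccgcccgtgg
TGFA, shorter exon 3: ccccgctgagtgacccgcccgtgg
The isoforms with the shorter exon 3 took 34.9% and 35.8% of TGFA counts in shScr, 39.3% and 37.3% in shRBM10#1 and 40.8% and 30.7% in shRBM10#2. The means were 35.3% ± 0.637 (SD, n = 2), 38.3% ± 1.42 and 35.7% ± 7.13. The values of shScr and shRBM10#1 did not overlap, the shRBM10#2 libraries enclosed both, and the 95% Wilson intervals of the shRBM10#2 libraries, 38.1% to 43.4% and 28.2% to 33.3%, lay apart from each other although they are replicates. The intervals cover counting error alone, and the counts are estimates that RSEM splits between isoforms differing by 3 bases. The isoforms with the other first exon took 0.53% to 4.93% of TGFA counts.

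Isoform usage, the level of an isoform relative to the rest of its gene, could be tested in TGFA and EGF. Neither gene was called in any of the 3 comparisons of conditions (diffSpliceDGE of edgeR with the Simes method), where 0.25%, 1.9% and 1.22% of 6405 genes were called with shRBM10#1, with shRBM10#2 and between the shRNAs. For TGFA the unadjusted p was 0.103, 0.086 and 0.874, and the FDR 1, 0.749 and 1. For EGF the unadjusted p was 0.954, 0.415 and 0.481, so 0 of the 6 had an unadjusted p below 0.05. The lowest p of a single isoform belonged to NM_001308159 of TGFA (0.0257 and 0.0215 against shScr), which had 0 counts in shScr, 0 and 27.35 in shRBM10#1 and 36.51 and 2.38 in shRBM10#2, so the replicates of each shRNA differed widely.

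For the ligands with few reads, isoform assignment changed between replicates. In EGF, all 37 counts of shScr 2 stood on NM_001963, whereas shScr 1 had 0 there, 36.74 on NM_001178130 and 6.26 on NM_001178131. The same held for shRBM10#1, where replicate 2 had all 49 counts on NM_001963 and replicate 1 had 0.16. In EPGN the counts stood on NM_001270989 in shRBM10#1 1 and on NM_001270993 in shRBM10#1 2, with 9 each. In NRG1 the main isoform was NM_013958 in both shScr libraries (10 and 7.52 counts) and NM_004495 in shRBM10#1 1 and shRBM10#2 2 (4 and 9.67 counts). No isoform switch of these ligands can be read from such values, and they are reported as gene totals.

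**Figure D4:**
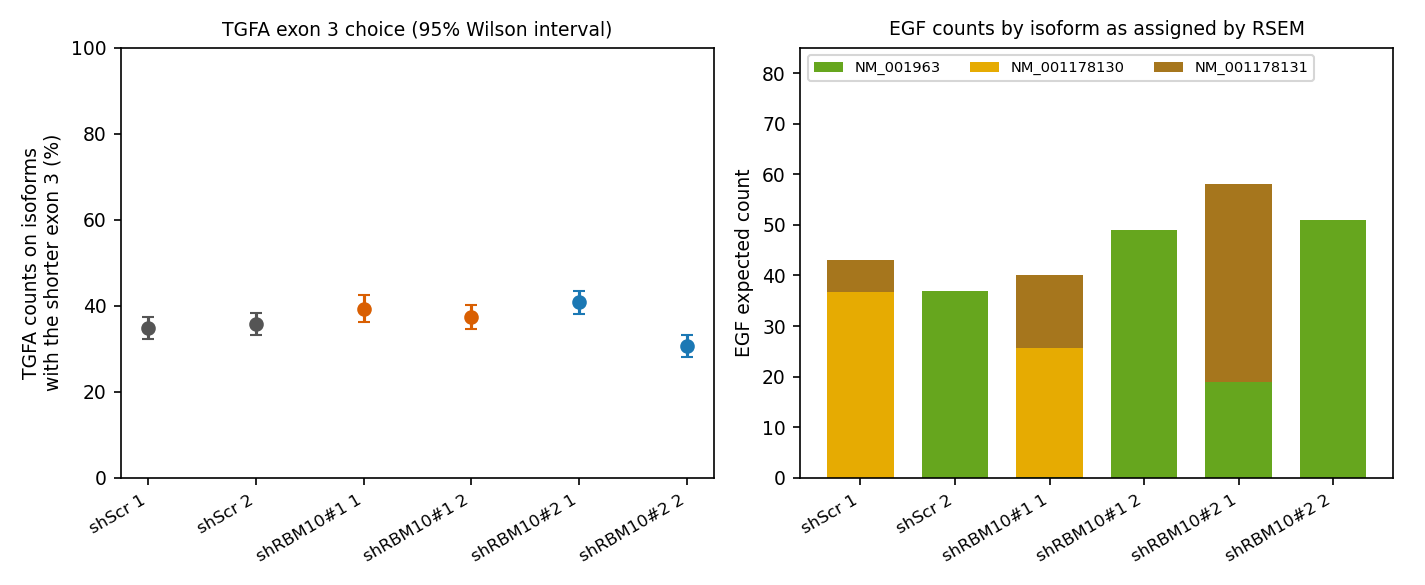
Left, percent of TGFA expected counts on isoforms with the shorter exon 3 in each library, with the 95% Wilson interval; right, EGF expected counts in each library stacked by isoform. The TGFA shares lie between 30.7% and 40.8%, with the lowest and the highest both in shRBM10#2, and the EGF isoform that takes all counts in shScr 2 takes none in shScr 1.

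The receptors and the other genes of the pathway were described by counts in lists. Of the ERBB receptors, EGFR was at 52.43 to 87.41 TPM, ERBB2 at 49.05 to 63.22 TPM and ERBB3 at 44.43 to 54.44 TPM, so each exceeded every ligand, and ERBB4 had 1 count in all 6 libraries together. EGFR was lower with both shRNAs (log2 FC −0.29 ± 0.0873, FDR = 0.0441; −0.38 ± 0.0873, FDR = 0.00758). ERBB2 and ERBB3 were higher with shRBM10#1 (0.36 ± 0.0677, FDR = 0.00395; 0.22 ± 0.0655, FDR = 0.0409) and not called with shRBM10#2 (0.06 and 0.10). The EGFR call with shRBM10#1 was lost in 5 of the 6 fits that left out a library, all but that without shRBM10#1 1, and moved to a log2 FC of −0.15 (FDR = 0.25) without shRBM10#1 2. That of ERBB3 was lost in 5 of these fits (FDR up to 0.169), and that of EGFR with shRBM10#2 without shScr 2 or either shRBM10#2 library (FDR up to 0.0917).

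Of the other neuregulin genes, NRG3 had no counts, NRG4 had 2 to 9, and NRG2 was the 1 tested. NRG2 was at 0.57 and 0.53 TPM in shScr, 1.16 and 1.96 in shRBM10#1 and 0.68 and 0.65 in shRBM10#2. Both shRBM10#1 libraries lay above the others, with a log2 FC of 1.61 ± 0.276 (FDR = 0.00203), and was not called with shRBM10#2 (0.33 ± 0.30, FDR = 0.454). The difference between the shRNAs was −1.28 ± 0.262 (FDR = 0.00422), and this call was lost without shRBM10#2 2 (FDR = 0.0509). The shRBM10#1 libraries differed, at 91 and 188 expected counts, and this difference moved to −0.81 (FDR = 0.0446) without shRBM10#1 2 and to −1.62 without shRBM10#1 1.

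Of 15 genes tested for ligand shedding and transport, 1 was called higher and 1 lower with shRBM10#1, and 2 higher and 4 lower with shRBM10#2. Over all genes 7.13% were called higher and 6.91% lower with shRBM10#1, and 12% higher and 13.9% lower with shRBM10#2, so the share of this list called with shRBM10#1 was near that of all genes. TIMP3, an inhibitor of the shedding protease ADAM17, was higher with both shRNAs (0.54 ± 0.0705, FDR = 0.000359; 0.43 ± 0.0704, FDR = 0.00125). ADAM12, a protease that can release HBEGF, was lower with both (−0.40 ± 0.0819, FDR = 0.00632; −0.60 ± 0.0822, FDR = 0.000523). CNIH1, a cornichon homolog of the family that carries TGFA-like ligands out of the endoplasmic reticulum, was higher with shRBM10#2 (0.65 ± 0.0745, FDR = 0.00018), and ADAM19 was lower (−0.59 ± 0.116, FDR = 0.00359). ADAM17, the main sheddase of these ligands, had a log2 FC of −0.24 ± 0.077 with shRBM10#1 (FDR = 0.0528) and −0.22 ± 0.0768 with shRBM10#2 (FDR = 0.0488), and the latter call was lost without shScr 2 (log2 FC −0.13, FDR = 0.317) or either shRBM10#2 library. The median log2 FC of this list was 0.03 and 0, beside 0.01 over all genes.

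Of 11 feedback inhibitors of the receptors and of ERK signaling, 4 were called higher and none lower with shRBM10#1, and 3 higher and 1 lower with shRBM10#2. Over all genes 7.13% and 12% were called higher, and 14% and 25.9% in either direction. LRIG1, a membrane protein that promotes degradation of ERBB receptors, was at 0.72 and 1.11 TPM in shScr, 4.13 and 5.82 in shRBM10#1 and 2.74 and 2.35 in shRBM10#2. Its log2 FC was 2.56 ± 0.197 (FDR = 1e-05) and 1.55 ± 0.205 (FDR = 0.000435), and it was 2.01-fold lower with shRBM10#2 than with shRBM10#1 (FDR = 0.0014), the reverse of the order of HBEGF. DUSP6, an ERK phosphatase, and SPRY1, a Sprouty inhibitor, were higher with shRBM10#1 (0.49 and 0.55, FDR = 0.00336 and 0.0101) and with shRBM10#2 (0.28 and 0.37, FDR = 0.0405 and 0.0413). SPRY2 was higher with shRBM10#1 (0.66, FDR = 0.00593), and SPRY4 was lower with shRBM10#2 (−0.24, FDR = 0.0376). Apart from LRIG1 each of these calls was lost when 1 of the libraries was left out: DUSP6 with shRBM10#1 without shScr 2, SPRY1 with shRBM10#1 without shScr 1 or shRBM10#1 2 (log2 FC 0.35 without the latter), SPRY2 without either shScr library, and the calls of DUSP6, SPRY1 and SPRY4 with shRBM10#2 without any 1 of the shScr or shRBM10#2 libraries. The median log2 FC of the list was 0.16 with each shRNA, beside 0.01 over all genes.

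**Figure D5:**
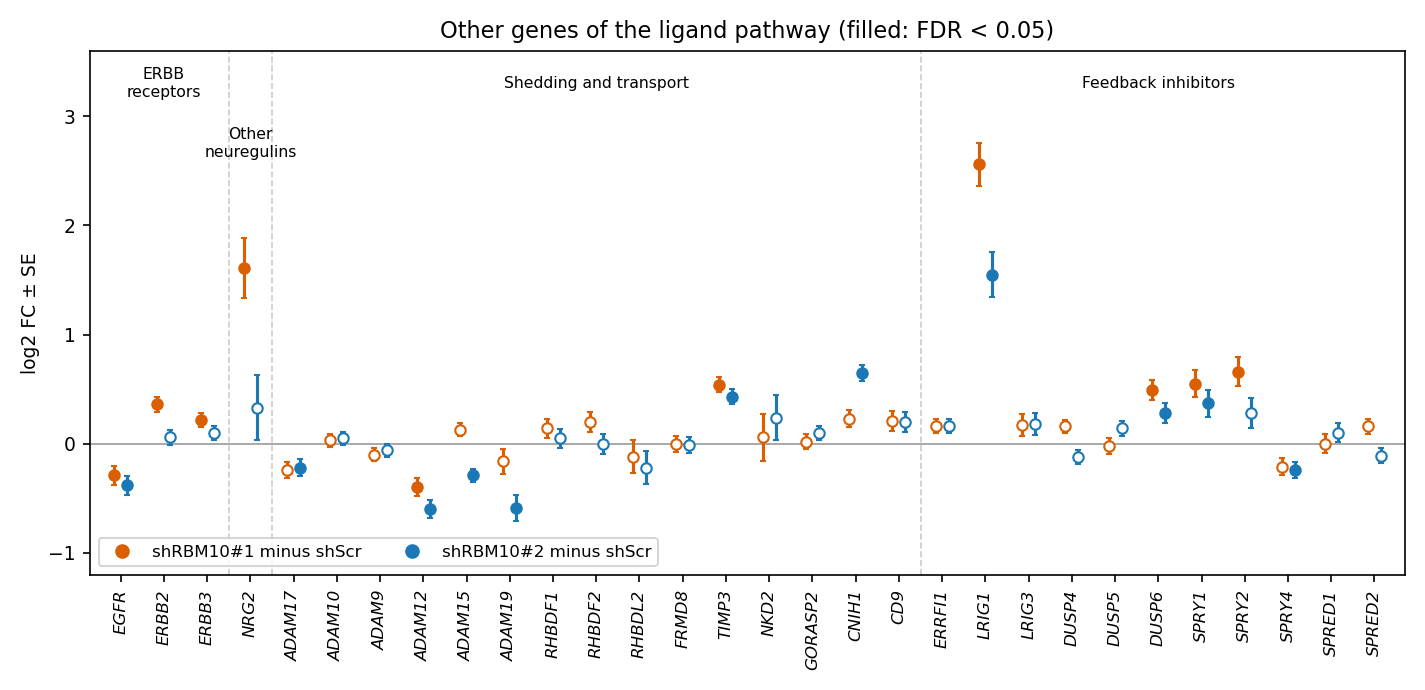
Log2 FC against shScr, with the SE as vertical bars, of the ERBB receptors, the other neuregulin tested, the genes of ligand shedding and transport and the feedback inhibitors, with shRBM10#1 and shRBM10#2 side by side and filled points for an FDR below 0.05. The points farthest from 0 are LRIG1 with shRBM10#1 at 2.56, NRG2 with shRBM10#1 at 1.61 and LRIG1 with shRBM10#2 at 1.55, and the other genes lie within 0.7 of 0.

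The genes whose log2 CPM followed a called ligand most closely were named by Pearson's r over the 6 libraries, as a description, since the points share their conditions. Each r was picked as one of the highest among the 14217 genes tested, so a value near 1 carries little weight by itself. For EPGN it also rests on 9 to 24 expected counts for each library. For HBEGF these were C15orf48 (r = 0.998), VANGL2 (0.996) and DSE (0.995). C15orf48 was at 24.3 and 23.1 TPM in shScr, 12.1 and 11.4 in shRBM10#1 and 15.9 and 16.3 in shRBM10#2, the order of conditions seen for HBEGF. For AREG they were PARS2 (0.99), ARHGAP33 (0.988) and PALM (0.978), and for TGFA EPM2A (0.99), LAMA2 (0.988) and LNPEP (0.987). For EPGN they were HKDC1 (0.997), TAP1 (0.996) and LIF (0.994), a cytokine that was at 13 and 14.9 TPM in shScr and 7.77 to 9.23 TPM in the KD libraries.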

How the data were processed

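Total RNA of 6 PC-9 libraries was sequenced and quantified by the authors. Per the labels, the submitters' processing notes name STAR 2.4, RSEM 1.2.29, edgeR and hg19. The authors deposited, for each RefSeq isoform and library, the RSEM expected count, which need not be whole. They also deposited TPM, effective length, and each isoform's percent of its gene. No count stood on a row without a gene name. Strand handling is not given in the sources used here.

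Expected counts were summed for each gene symbol, rounded, and tested with the quasi-likelihood test of edgeR 4.0.16 in R 4.3.3 (TMM scaling, factors 0.979 to 1.02; filterByExpr by condition; 1 coefficient for each of the 3 conditions over all 6 libraries; Benjamini-Hochberg adjustment over 14217 genes or 26464 isoforms). The 4 KD libraries were also fitted as 1 group against shScr, for gene totals only. Genes were called at an FDR below 0.05. Isoform usage was tested with diffSpliceDGE. All tests were two-sided. The SE of an edgeR log2 FC was derived from its test, as the absolute log2 FC divided by the square root of the F statistic. DESeq2 1.42.0 was an alternative, and Wilson intervals were made with SciPy 1.17.1 in Python 3.11.15. On simulated counts with 200 features changed by a log2 FC of 2, the gene test recovered 97.5% with each shRNA (14066 genes tested). The isoform test recovered 94.5% (25691 isoforms) and the usage test 97% and 94% (6188 genes) with shRBM10#1 and shRBM10#2. False calls were 2.99% and 4.41% of the genes called, 5.97% of the isoforms and 6.28% and 7.39% of the genes with usage called. The simulated spread was preset and smaller changes were not simulated, so these shares do not tell what the tests could detect in the ligands.

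The ligands, the pathway lists and the markers were chosen with earlier results of these data known. All ligands were named, of each pathway list at most 4 called genes for each comparison by size of log2 FC besides its defining gene, and for each called ligand the 3 genes most like it. Replicates differed by more than sampling noise (chi-square per degree of freedom 3.22 to 12.2). Coordinates are of GRCh38 and were not converted from hg19. Promoter windows are those of RefSeq.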

Additional observations from a re-analysis of the deposited data

Results flagged for a closer look

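HBEGF was flagged because its fall differed between the shRNAs by a direct test, which called 25.5% of all genes tested in either direction. Its log2 FC between shRBM10#2 and shRBM10#1 was 1.11 ± 0.155 (edgeR quasi-likelihood test, FDR = 0.000518), and both libraries of shRBM10#2 (5.24 and 6.4 TPM) lay above both of shRBM10#1 (2.9 and 2.39 TPM). Across the 3 conditions the libraries with the least RBM10 mRNA were therefore not those with the least HBEGF. The cause was not tested.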

How the results depend on the processing

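HBEGF kept its direction and its call with each shRNA and between them under all alternatives run, with a log2 FC of −2.48 to −2.20 with shRBM10#1, −1.39 to −1.09 with shRBM10#2 and 0.96 to 1.25 between them when 1 library was left out. With shRBM10#1 2 to 3 ligands were called when 1 library was left out. With shRBM10#2 the number fell from 3 to 1, HBEGF, under DESeq2 and without the low count filter, and ranged from 1 to 3 without 1 library. TGFA was lost there under 4 of 7 other settings and EPGN under 2 of 6. Between the shRNAs the ligands called rose from 1 to 2, with AREG added, without the filter. In the pooled comparison leaving out 1 library gave 0 to 1. Ligand isoforms called with shRBM10#1 numbered 1 at 10 or more counts in every library, 2 with DESeq2 and 1 without the filter, against 0, and between the shRNAs 1 at 10 or more counts and 1 with DESeq2, against 0. With shRBM10#2 the number was 0 when only the 2 conditions were fitted and 0 when any 1 library was left out, against 1. Ligand usage calls stayed at 0. The cause of these changes was not tested.

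The deviations of same-numbered libraries correlated at 0.012, −0.013 and 0.002 over the genes tested. These values show no pairing by replicate number that many genes share, and a pairing that touches few genes would not be seen in them. Under the replicate block the ligands called were 1 with shRBM10#2 and 0 in the pooled comparison, and the ligand isoforms called with shRBM10#2 were 0.

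Directions turned only in comparisons in which the ligand was not called. With shRBM10#1 the log2 FC of BTC was 0.01 with an offset from effective lengths. Without 1 library it ranged from −0.40 to 0.53 with shRBM10#1, −0.36 to 0.57 with shRBM10#2, −0.20 to 0.26 between the shRNAs and −0.38 to 0.55 in the pooled comparison. The same ranges were −0.02 to 0.22 for EGF with shRBM10#1, −0.05 to 0.18 for EPGN between the shRNAs and −0.90 to 0.03 for NRG1 with shRBM10#2.

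Over all genes, 1996 were called with shRBM10#1 (985 to 2626 without 1 library), 3685 with shRBM10#2 (954 to 4566), 3628 between the shRNAs (918 to 3736) and 230 pooled (0 to 416; 718 with DESeq2; 52 with the block). All isoforms called numbered 6, 130 and 95 in those 3 comparisons of conditions, 0 in each with the block, 0 to 1, 0 to 44 and 0 to 2 without 1 library, and 528, 809 and 707 with DESeq2. An FDR alone gave 597 and 595 isoforms with shRBM10#2 and between the shRNAs. Usage calls numbered 16, 122 and 78, with 4 to 39, 33 to 139 and 25 to 88 under the alternatives. Adding AREGB to AREG was not run, because that symbol is not listed and both AREG copies were already summed. Counts under 30 for each library limit EPGN, NRG1 and EREG.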
